A study of Danio rerio with 24 samples.

Results

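Livers of 1-year-old male zebrafish given the higher of 2 rotenone concentrations, 37.5 nM, were compared with livers of 1-year-old male zebrafish given the lower one, 3.75 nM. Each group held 9 fish, chosen by the age and concentration in the labels, so 18 of the 24 fish of the series entered the comparison. Both groups were of strain AB JxTu with no transgene named, and differed in the labels by concentration alone. The other 6 fish were 3 years old, carried Tg(flk:mCherry) and received 37.5 nM. Every fish has a rotenone concentration, so no untreated fish gives a background level, and the length and route of exposure are not given in the sources used here. The counts of the groups came in separate tables, so the concentration and the table cannot be told apart. Total counts per library ran between 29034300 and 45297644 at 37.5 nM (median 34871346) and between 24644663 and 40706711 at 3.75 nM (median 30947554).

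Rotenone blocks complex I of the mitochondrial respiratory chain, the enzyme that passes electrons from NADH to ubiquinone and pumps protons for ATP synthesis. Hepatocytes depend on that ATP for their large output of plasma proteins, which are made on the endoplasmic reticulum (ER), folded by its chaperones and carried to the Golgi in COPII vesicles. The liver also makes cholesterol, stores glucose as glycogen and clears foreign compounds through cytochrome P450 enzymes.

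Fish numbers formed a lower series (163 to 177 among these fish) with 4 fish at 37.5 nM and 4 at 3.75 nM, and an upper series (189 to 202) with 5 and 5. What separated the series is not given in the sources used here, and the series was a term in every model unless stated. Hepatocyte markers were abundant in all libraries, with none of 17 at 0 and a summed level of 134972 to 341151 CPM (counts scaled to library size) at 37.5 nM and 111087 to 234648 CPM at 3.75 nM. Markers of other tissues stood more than 2 log2 units above the median of the 18 fish in several libraries. At 37.5 nM these were erythrocyte markers in fish 201 and 202, intestine markers in fish 200 and muscle markers in fish 198, and at 3.75 nM exocrine pancreas markers in fish 165 and 190 and muscle markers in fish 166. These 7 libraries were left out in an alternative fit, which kept only fish 199 of the upper-series fish at 37.5 nM. Calls lost in that fit may reflect fewer fish and the uneven series as well as other tissue. Endocrine pancreas markers, such as hormone genes of the islets, stood apart in fish 198 and 200 at 37.5 nM and in all 4 lower-series fish at 3.75 nM. Their sum was 1.22 to 409 CPM at 37.5 nM, against 91.1 to 711 CPM in those 4 fish and 1.97 to 49.7 CPM in the other 5 fish at 3.75 nM. A second alternative fit took the endocrine and exocrine pancreas marker levels as covariates. In the lower series the endocrine sum was 1.93 to 19.4 CPM at 37.5 nM, with no overlap with the fish at 3.75 nM. The endocrine covariate therefore ran with the concentration in that series. Calls lost or kept in this fit cannot tell pancreas tissue from concentration there. In whole livers, fewer cells of a type and less RNA per cell cannot be told apart.

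Of 15465 genes tested with edgeR's quasi-likelihood test, 2546 passed a Benjamini-Hochberg adjusted p of 0.05, which is 16.5% of all genes. At 37.5 nM, 909 genes were higher (5.88%) and 1637 were lower (10.6%) than at 3.75 nM. Higher genes made up 35.7% of the calls, and 46.1% with upper-quartile scaling. The median log2 change of all tested genes, 37.5 minus 3.75 nM, was 0.02. The groups did not overlap in 25 genes (0.162%) that were lower in every fish at 37.5 nM and in 11 (0.0711%) that were higher. Without the 7 libraries, 372 genes were higher (2.41%) and 810 lower (5.25%). With the pancreas covariates, 243 were higher (1.57%) and 774 lower (5.0%).

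**Figure D1:**
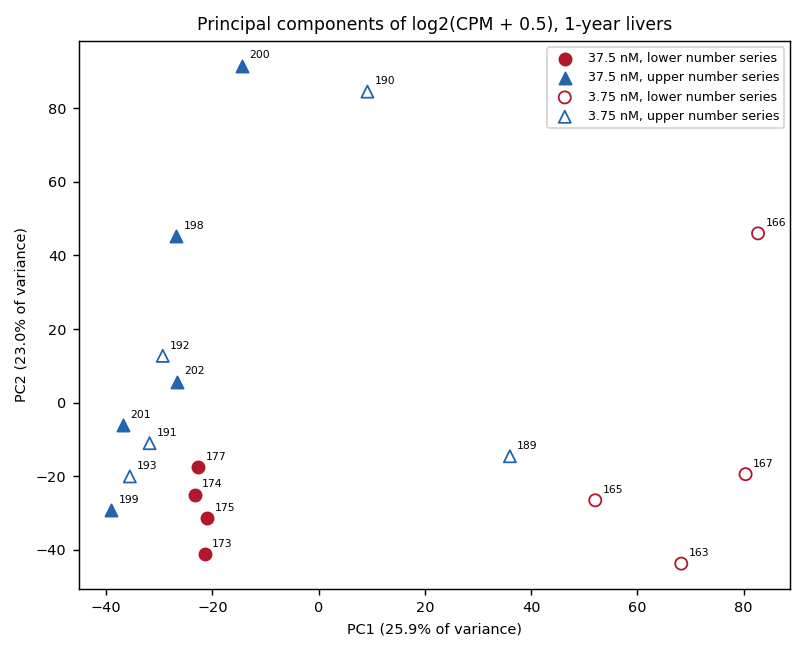
First 2 principal components of log2(CPM + 0.5) over the 18 livers, each point 1 fish labelled with its number, filled symbols 37.5 nM, open symbols 3.75 nM. The 9 fish at 37.5 nM had scores below 0 on the first component, and fish 191, 192 and 193 at 3.75 nM lay among them, while the 4 lower-series fish at 3.75 nM and fish 189 lay apart on the other side.

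The first component, with 25.9% of the variance, did not divide the fish by concentration alone. The 9 fish at 37.5 nM had scores between -39.0 and -14.5. The 4 lower-series fish at 3.75 nM had scores between 52.1 and 82.7, and fish 189 followed at 36.0. Fish 190 had 9.19, and fish 191, 192 and 193 at 3.75 nM had -35.5 to -29.3, within the range of the fish at 37.5 nM. The 5 fish 163, 165, 166, 167 and 189 at 3.75 nM therefore carried the largest contrast to the fish at 37.5 nM.

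**Figure D2:**
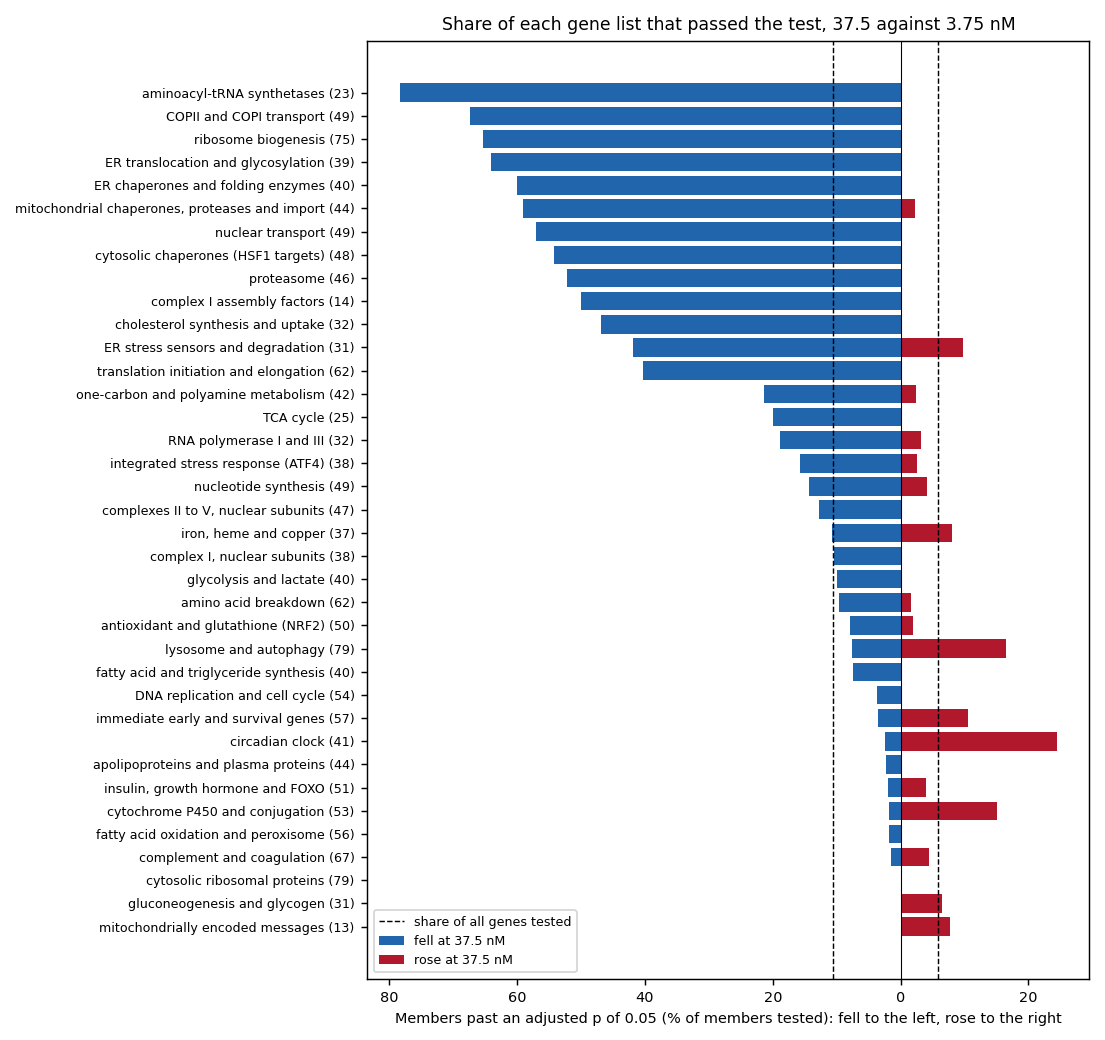
Share of the tested members of 37 gene lists that passed an adjusted p of 0.05, lower at 37.5 nM to the left (blue) and higher at 37.5 nM to the right (red), in percent of members tested, with the number tested in brackets. Dashed lines are the shares over all genes, 10.6% lower and 5.88% higher; aminoacyl-tRNA synthetases reached 78.3% lower and the circadian clock list 24.4% higher.

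The nuclear-encoded messages of complex I itself, the target of rotenone, differed little in level. Of 38 nuclear-encoded subunits, 4 fell at 37.5 nM and none rose, a share of 10.5% that lies at the background of 10.6%. Their median log2 change was -0.12, and 35 of the 38 lay below 0. In the upper series 33 of the 38 did, beside 46.3% of all genes there. The accessory subunit ndufc1 (ENSDARG00000103101) of the membrane arm had 7.60 CPM in the lowest fish, 9.46 in the median and 12.1 in the highest at 37.5 nM, against 10.6, 12.4 and 15.2 CPM at 3.75 nM. The ranges overlapped, and 7 of 9 fish at 37.5 nM were under the whole 3.75 nM range. Its log2 change was -0.39 ± 0.10 (standard error, as for all changes given this way; adjusted p = 0.0118, edgeR). NDUFAB1, the mitochondrial acyl carrier protein that is also a complex I subunit, changed by -0.38 ± 0.10 (adjusted p = 0.0171, edgeR). Both calls were lost without the 7 libraries (adjusted p = 0.112 for ndufc1 and 0.167 for NDUFAB1, edgeR).

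Assembly factors of complex I, which build the enzyme and are not part of it, showed a larger difference. Of 14 tested, 7 fell and none rose, with a median log2 change of -0.49 (lower series -0.67, upper -0.19). NDUFAF1 (ENSDARG00000025549), a core member of the complex that assembles the membrane arm, had 8.10, 10.4 and 11.8 CPM (lowest, median and highest fish) at 37.5 nM, against 11.5, 13.8 and 25.0 CPM at 3.75 nM. Only the highest fish at 37.5 nM reached into the range at 3.75 nM. Its log2 change was -0.66 ± 0.12 (adjusted p = 0.00179, edgeR). ECSIT (ENSDARG00000062834), of the same assembly complex, had 3.67, 5.52 and 7.31 CPM at 37.5 nM, against 5.44, 13.9 and 29.2 CPM at 3.75 nM, a change of -1.31 ± 0.24 (adjusted p = 0.0019, edgeR; -2.03 in the lower and -0.69 in the upper series). The other factors that fell were NDUFAF8 (-1.10), NDUFAF4 (-0.77), NDUFAF7 (-0.70), TMEM126A (-0.39) and NDUFAF5 (-0.33). The count was 4 when any of fish 173, 175, 177, 166, 167 or 190 was left out, 4 without the 7 libraries and 3 with the pancreas covariates.

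The other respiratory complexes gave 6 falls and no rise among 47 nuclear-encoded subunits tested (median -0.12), again near the background. UQCR10, a small subunit of complex III, had 28.3, 37.7 and 48.8 CPM at 37.5 nM, against 37.0, 53.9 and 70.6 CPM at 3.75 nM, a change of -0.49 ± 0.09 (adjusted p = 0.00255, edgeR). COX7A2, a subunit of cytochrome c oxidase, changed by -0.46 ± 0.12 (adjusted p = 0.0156, edgeR). Without the 7 libraries only 1 of the list fell, and neither UQCR10 (adjusted p = 0.0695) nor COX7A2 (0.123) passed in edgeR. The count was 2 without fish 174, 3 without fish 175 or 190 and 12 without fish 199. The 13 messages encoded by mitochondrial DNA all had log2 changes above 0, from 0.19 to 0.49. Of these 13, 1 rose (7.69%, beside 5.88% of all genes). The count of rises was 0 to 5 with 1 fish left out and 9 in the lower series alone. It was 3 without the 7 libraries and 0 with the pancreas covariates. The gene that rose was mt-atp8, which encodes a small ATP synthase subunit. Its level was 593, 1005 and 1751 CPM at 37.5 nM and 611, 795 and 948 CPM at 3.75 nM (0.49 ± 0.16, adjusted p = 0.0438, edgeR), a call that 12 of 18 fits with 1 fish left out did not keep. MT-ATP6, whose gene overlaps mt-atp8 so that their reads may be shared, had 0.43 ± 0.16 (adjusted p = 0.0709, edgeR).

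Genes of the machinery that brings proteins into mitochondria and folds them there fell at 37.5 nM. Among 44 tested chaperones, proteases and import proteins, 26 fell and 1 rose (SPG7, a protease subunit, 0.59), with a median log2 change of -0.67. The count of falls stayed at 26 in each of the 18 fits that left out 1 fish, and was 25 without the 7 libraries and 24 with the pancreas covariates. HSPD1 (ENSDARG00000056160), the chaperonin of the mitochondrial matrix, had 26.8, 44.6 and 111 CPM at 37.5 nM, against 46.4, 173 and 439 CPM at 3.75 nM. Its groups overlapped when pooled but not within either number series, where the highest fish at 37.5 nM had 111 CPM (lower) and 44.6 CPM (upper) and the lowest at 3.75 nM had 321 and 46.4 CPM. The log2 change was -1.82 ± 0.21 (adjusted p = 0.000636, edgeR), with -2.07 in the lower and -1.57 in the upper series.

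TRAP1 (ENSDARG00000024317), the mitochondrial form of HSP90, had 16.8, 18.6 and 24.3 CPM at 37.5 nM, against 20.1, 31.7 and 47.6 CPM at 3.75 nM. Its change of -0.81 ± 0.09 had the same adjusted p as HSPD1 (0.000636, edgeR). HSPE1, the lid of the chaperonin, changed by -1.45, LONP1, a matrix protease, by -1.04, and HSPA9, the mitochondrial HSP70 that pulls proteins inward, by -0.87. Falls extended over both membranes: TOMM22 (-1.33), TOMM40 (-0.72) and TOMM70 (-0.51) belong to the outer translocase, and TIMM50 (-1.51), TIMM44 (-1.22) and TIMM22 (-1.07) to the inner ones. The small carriers between them, TIMM8A (-0.99), TIMM8B (-1.09), TIMM9 (-0.88), TIMM10 (-1.22) and TIMM13 (-1.09), fell as well. In the upper series 32 of the 44 members had a change below 0 (median -0.37), beside 46.3% of all genes.

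**Figure D3:**
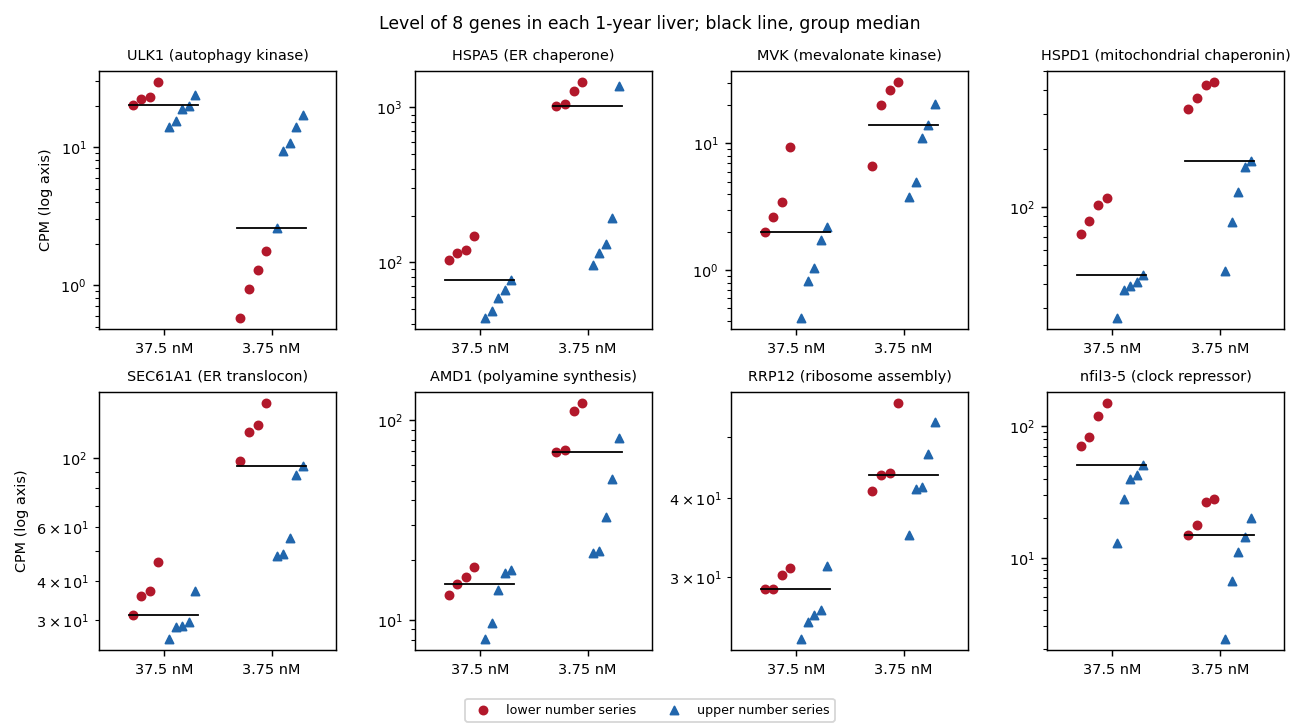
CPM on log axes of 8 genes in each of the 18 livers, 37.5 nM left of 3.75 nM, with the lower number series as red circles, the upper as blue triangles and a black line at the group median. For SEC61A1, AMD1 and RRP12 the groups do not overlap; for HSPA5 a single upper-series fish at 3.75 nM, fish 189, stood with the lower series.

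Genes of the secretory pathway fell at each stage examined. At the entry, 25 of 39 tested members of ER translocation and glycosylation fell and none rose (median -0.44; -0.63 in the lower and -0.31 in the upper series). SEC61A1 (ENSDARG00000005675), the pore through which new proteins enter the ER, had 26.2, 31.3 and 46.2 CPM at 37.5 nM, against 48.4, 93.8 and 149 CPM at 3.75 nM. No fish at 37.5 nM reached the lowest fish at 3.75 nM, and the log2 change was -1.41 ± 0.16 (adjusted p = 0.000636, edgeR). The symbol belongs to 2 gene rows, and the values are of the named one. TRAM1 (ENSDARG00000019137), a membrane protein beside the pore, had 56.7, 80.3 and 123 CPM at 37.5 nM, against 99.5, 208 and 453 CPM at 3.75 nM (-1.46 ± 0.20, adjusted p = 0.000689, edgeR). The signal recognition particle (SRP9, SRP19, SRP54, SRP68 and SRP72, -1.002 to -0.30), its receptor (SRPRA -1.05, srprb -0.56) and oligosaccharyltransferase subunits (DDOST -0.40, DAD1 -0.53, OST4 -0.54) also fell. The list's count was 11 without the 7 libraries, a share of 39 still above the 5.25% of all genes, and 20 with the pancreas covariates.

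Inside the ER, 24 of 40 tested chaperones and folding enzymes fell and none rose, with a median change of -0.85 (-1.18 in the lower and -0.59 in the upper series). HSPA5 (ENSDARG00000103846), the ER HSP70 also called BiP, had 44.0, 76.5 and 148 CPM at 37.5 nM, against 96.0, 1019 and 1451 CPM at 3.75 nM. The lower-series fish had 103 to 148 CPM at 37.5 nM and 1019 to 1451 CPM at 3.75 nM. In the upper series, the fish at 37.5 nM had 44.0 to 76.5 CPM, whereas fish 189 at 3.75 nM had 1375 CPM and the other 4 had 96.0 to 192 CPM. HSPA5 therefore separated the concentrations within each series, by a wide gap in the lower series and by a narrow one in the upper apart from fish 189. The log2 change was -2.96 ± 0.46 (adjusted p = 0.000971, edgeR) and -2.20 (adjusted p = 0.00187) without fish 189.

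HYOU1 (ENSDARG00000013670), a large HSP70 relative that exchanges nucleotide on HSPA5, had 27.4, 46.1 and 115 CPM at 37.5 nM, against 57.8, 334 and 654 CPM at 3.75 nM (-2.23 ± 0.28, adjusted p = 0.000689, edgeR). CRELD2 (ENSDARG00000029071), an ER-stress-inducible protein, had 1.13, 2.97 and 6.68 CPM at 37.5 nM, against 3.77, 36.4 and 59.5 CPM at 3.75 nM (-2.92 ± 0.40, the same adjusted p). MANF (-2.33), PDIA4 (-1.63), SDF2L1 (-1.43), HSP90B1 (-1.37), CANX (-1.08) and DNAJB11 (-1.08) fell too. Genes for ER stress sensing and for the removal of misfolded proteins were mixed, with 18 of 31 below 0 and 13 above (median -0.31). They gave 13 falls (41.9%) and 3 rises (9.68%), beside 10.6% and 5.88% of all genes. HM13, a signal peptide peptidase, fell by 0.78 ± 0.13 on the log2 scale (adjusted p = 0.00118) and SEL1L, a scaffold of the ER ubiquitin ligase, by 0.71 ± 0.12 (adjusted p = 0.00162, both edgeR). The transcription factors atf6 (-0.67) and XBP1 (-0.89) fell, and the 3 rises were MBTPS1 (0.58) and MBTPS2 (0.72), the proteases that release ATF6 and SREBP from the Golgi, and CREB3L2 (0.89). Only 1 rise was left without any 1 of fish 173, 174, 175, 177, 163, 165, 166, 167, 189 or 190, with 5 without fish 202, 192 or 193, 1 without the 7 libraries and 0 with the pancreas covariates. Between 9 and 13 falls were counted with 1 fish left out, against 6 without the 7 libraries and 6 with the pancreas covariates. The lower series alone gave 12 falls and 9 rises. The difference between the series passed for 6 of the 31 genes, a share to be read beside 7.86% for all genes.

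On the way out of the ER, 33 of 49 tested COPII and COPI transport genes fell and none rose (median -0.62; -0.88 in the lower and -0.31 in the upper series). In the mean level of this list, 7 of 9 fish at 37.5 nM were under the whole 3.75 nM range. COPA (ENSDARG00000004173), a coat subunit of vesicles that return to the ER, had 104, 131 and 149.5 CPM at 37.5 nM, against 152, 171 and 257 CPM at 3.75 nM, with no overlap (-0.58 ± 0.09, adjusted p = 0.000895, edgeR). COPE, of the same coat, changed by -0.71 ± 0.11 (adjusted p = 0.000975, edgeR). The outer COPII coat SEC13 (-0.75) and SEC31A (-1.14), the cargo adaptors SEC24B (-0.42), sec24c (-0.76) and SEC24D (-0.67), the small GTPases sar1ab (-0.65) and sar1b (-0.41) and the cargo receptors SURF4 (-1.29) and LMAN1 (-0.49) fell. Without the 7 libraries 15 fell, and with the pancreas covariates 18. The difference between the series itself passed for 8 of the 49 genes, a share to be read beside 7.86% for all genes.

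**Figure D4:**
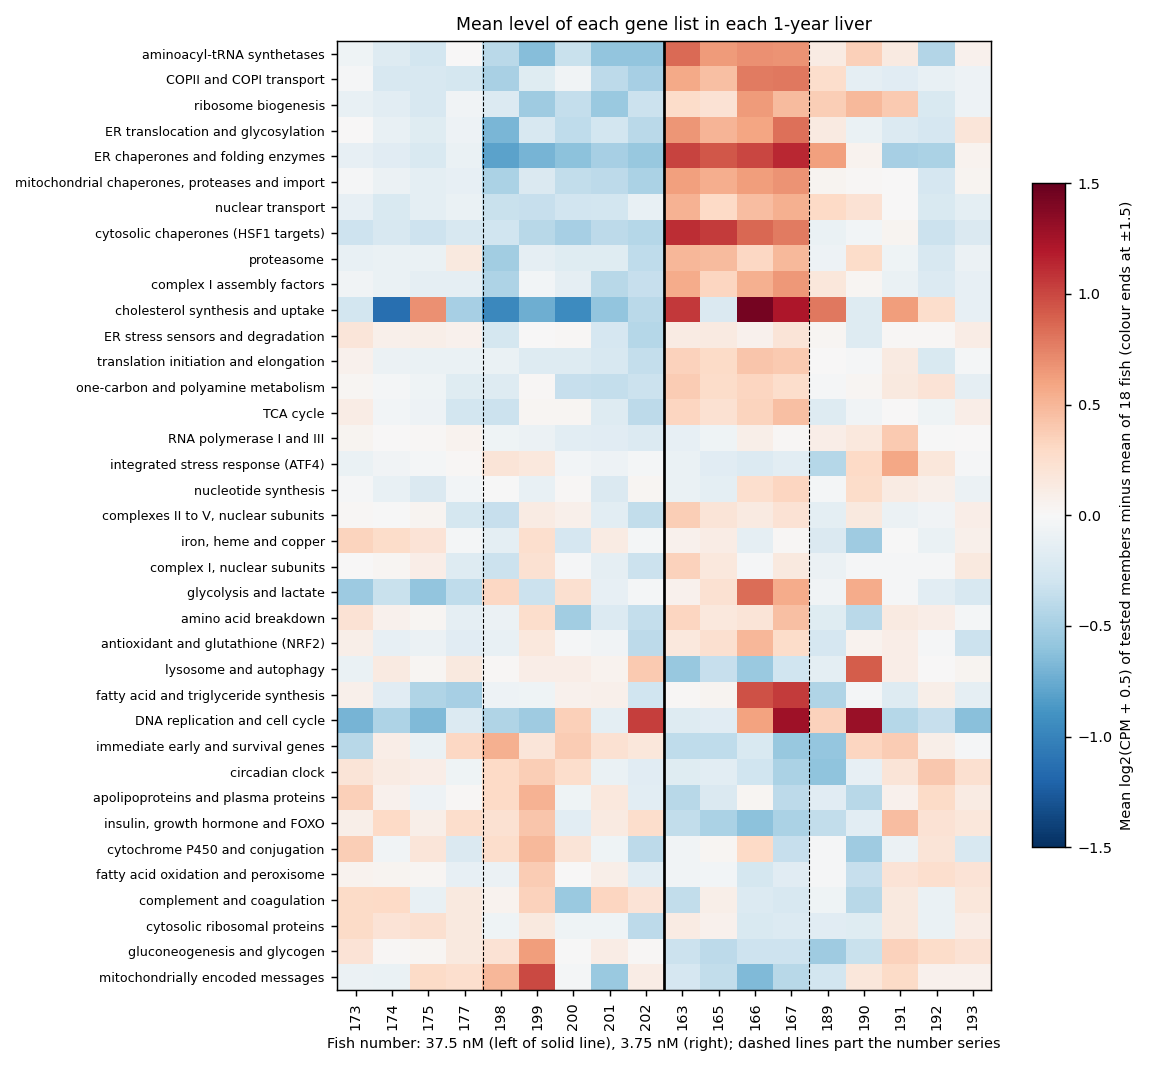
Mean log2(CPM + 0.5) of the tested members of each list in each fish, minus the mean of the 18 fish, with the 37.5 nM fish left of the solid line and dashed lines between number series; the colour scale ends at ±1.5. At 3.75 nM, COPII and COPI transport, ER and cytosolic chaperones and tRNA synthetases were higher in each of the 4 lower-series fish than in any of the 5 upper-series fish.

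Cytosolic chaperones and the proteasome followed. Of 48 tested chaperones and cochaperones, 26 fell and none rose (median -0.56; -0.93 in the lower and -0.32 in the upper series), with 16 falls without the 7 libraries and 14 with the pancreas covariates. HSPBP1, a nucleotide exchange factor of HSP70, had 2.07, 2.83 and 3.81 CPM at 37.5 nM, against 3.11, 6.44 and 18.2 CPM at 3.75 nM (-1.49 ± 0.22, adjusted p = 0.000813, edgeR). CCT7, a subunit of the ring that folds actin and tubulin, changed by -0.74 ± 0.13 (adjusted p = 0.00168, edgeR). The heat-inducible hsp70.3 (ENSDARG00000021924), a member of a family of near-identical copies whose reads may be split, showed how far the series parted. It had 0.464 to 1.72 CPM at 37.5 nM and 58.5 to 132 CPM at 3.75 nM in the lower series. In the upper series it had 0 to 0.591 CPM at 37.5 nM and 0.261 to 1.74 CPM at 3.75 nM, with overlap. The pooled change was -3.80 ± 1.05 (adjusted p = 0.0211, edgeR), a call that 4 fits with 1 fish left out did not keep.

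Of 46 proteasome genes, 24 fell and none rose, with a median of -0.34. PSME3, an activator of nuclear proteasomes, had 7.10, 9.43 and 12.51 CPM at 37.5 nM, against 9.48, 23.1 and 28.1 CPM at 3.75 nM (-1.01 ± 0.15, adjusted p = 0.000761, edgeR). PSMD11, a lid subunit with 2 gene rows of that symbol, changed by -0.55 ± 0.09 (adjusted p = 0.00148, edgeR). The proteasome count was 15 without fish 174 and 15 without fish 165, 4 without the 7 libraries and 15 with the pancreas covariates.

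Genes that make ribosomes fell while genes that encode ribosomal proteins did not pass. Of 75 tested ribosome biogenesis genes, 49 fell and none rose (median -0.68), and this list had nearly the same median in the lower (-0.63) and the upper series (-0.60), with 71 of 75 below 0 in the upper series. RRP12 (ENSDARG00000022410), which exports and matures pre-ribosomes, had 24.0, 28.8 and 31.2 CPM at 37.5 nM, against 34.9, 43.5 and 56.5 CPM at 3.75 nM. NOC3L (ENSDARG00000002487), an assembly factor of the large subunit, had 5.74, 7.12 and 8.60 CPM at 37.5 nM, against 9.13, 12.6 and 15.6 CPM at 3.75 nM. Neither gene had overlapping groups. The log2 change of RRP12 was -0.68 ± 0.09 and that of NOC3L -0.81 ± 0.11, both with an adjusted p of 0.000689 (edgeR).

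The box C/D and H/ACA proteins that guide rRNA modification were among the falls: FBL (-1.05), NOP58 (-1.22), DKC1 (-1.55), GAR1 (-1.18), NHP2 (-0.82) and NOP10 (-0.90). Subunits of RNA polymerases I and III gave 6 falls (18.8%) and 1 rise (3.12%) among 32 (median -0.15), beside 10.6% and 5.88% of all genes. The falls were led by POLR1H (-1.01 ± 0.24) and POLR1C (-0.91 ± 0.22), each with an adjusted p of 0.0104 (edgeR). This list had 3 falls without fish 173, 174 or 189 and none without the 7 libraries or with the pancreas covariates. Its median was 0.10 in the lower and -0.24 in the upper series, and the lower series alone gave 6 falls and 10 rises. The difference between the series passed for 7 of the 32 genes, a share to be read beside 7.86% for all genes. None of 79 cytosolic ribosomal protein genes passed in either direction, with a median of 0.10. Among them rps27.1, of the small subunit, had 376, 508 and 571 CPM at 37.5 nM and 382, 405 and 487 CPM at 3.75 nM (0.15 ± 0.09, adjusted p = 0.271, edgeR). The ribosome biogenesis count was 45 to 52 with 1 fish left out, 31 without the 7 libraries and 39 with the pancreas covariates.

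Aminoacyl-tRNA synthetases, which charge tRNAs with amino acids, had the largest share of falls of any list, 18 of 23 tested (78.3%), with none higher. Their median change was -0.68, with -0.74 in the lower and -0.54 in the upper series. LARS1 (ENSDARG00000019280), for leucine, had 13.02, 16.8 and 20.1 CPM at 37.5 nM, against 18.5, 33.4 and 58.4 CPM at 3.75 nM. SARS1 (ENSDARG00000008237), for serine, had 49.4, 58.4 and 102 CPM at 37.5 nM, against 62.1, 102 and 149.7 CPM at 3.75 nM. In both genes 5 of 9 fish at 37.5 nM were under the whole 3.75 nM range. LARS1 changed by -1.18 ± 0.15 and SARS1 by -0.71 ± 0.10, with the same adjusted p (0.000689, edgeR). Without the 7 libraries 13 fell, and with the pancreas covariates 13.

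Translation factors gave 25 falls and no rise among 62 (median -0.26). ABCE1, which recycles ribosomes after termination, had 40.3, 46.0 and 70.2 CPM at 37.5 nM, against 48.2, 97.8 and 177 CPM at 3.75 nM (-1.11 ± 0.15, adjusted p = 0.000689, edgeR). ETF1, the release factor that reads stop codons, changed by -1.15 ± 0.18 (adjusted p = 0.000864, edgeR). Among 49 tested genes of nuclear transport, 28 fell and none rose (median -0.45). The gene ipo4 (ENSDARG00000041493), an importin for histones and ribosomal proteins, had 8.84, 10.4 and 14.1 CPM at 37.5 nM, against 12.3, 24.2 and 37.0 CPM at 3.75 nM (-1.17 ± 0.14, adjusted p = 0.000689, edgeR). RANGAP1, which drives GTP hydrolysis by RAN, changed by -0.86 ± 0.15 (adjusted p = 0.00179, edgeR; 2 gene rows). XPOT, the exporter of tRNAs (-0.89), CSE1L (-1.16), xpo1a (-1.10), RCC1 (-2.32) and RAN itself (-0.29) fell. Without the 7 libraries 14 translation factors and 16 transport genes fell, and with the pancreas covariates 13 and 15.

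Single enzymes of polyamine, nucleotide and sulfur amino acid synthesis were among the clearest falls. AMD1 (ENSDARG00000043856), which makes decarboxylated S-adenosylmethionine for polyamines, had 8.08, 15.3 and 18.4 CPM at 37.5 nM, against 21.7, 69.2 and 122 CPM at 3.75 nM. The groups did not overlap, and the log2 change was -2.05 ± 0.28 (adjusted p = 0.000689, edgeR). ODC1, the first enzyme of polyamine synthesis, changed by -2.59 ± 0.69 (adjusted p = 0.0171, edgeR), and the spermidine and spermine synthases SRM (-1.36) and SMS (-0.54) also fell. SAT1, which acetylates polyamines for export, rose (0.93). It was the only rise among the 42 tested members of one-carbon and polyamine metabolism (2.38%, beside 5.88% of all genes). Of these 42 genes, 9 fell (21.4%, beside 10.6% of all genes), with a median of -0.22. ALDH1L2, a mitochondrial folate enzyme, had 1.28, 1.88 and 3.23 CPM at 37.5 nM, against 2.54, 9.70 and 18.3 CPM at 3.75 nM (-1.92 ± 0.32, adjusted p = 0.00124, edgeR). The list had 3 falls without the 7 libraries and 6 with the pancreas covariates.

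In nucleotide synthesis 7 of 49 fell (14.3%) and 2 rose (4.08%), beside 10.6% and 5.88% of all genes. The median was -0.26, with 6 falls without the 7 libraries and 4 with the pancreas covariates. CTPS1, which makes CTP, had 4.03, 5.13 and 6.83 CPM at 37.5 nM, against 6.09, 17.3 and 25.4 CPM at 3.75 nM (-1.62 ± 0.22, adjusted p = 0.000689, edgeR; 2 gene rows). The dihydrofolate reductase gene dhfr changed by -1.07 ± 0.18 (adjusted p = 0.00117), and PPAT, the first committed enzyme of purine synthesis, by -2.17 ± 0.40 (adjusted p = 0.00216, both edgeR). The ATF4 list of the integrated stress response gave 6 falls (15.8%) and 1 rise (2.63%) among 38 (median -0.12). It had 2 falls without the 7 libraries and 5 with the pancreas covariates. CTH (ENSDARG00000074301; 2 gene rows), which makes cysteine from cystathionine, had 25.1, 77.6 and 141 CPM at 37.5 nM, against 107, 180 and 520 CPM at 3.75 nM (-1.54 ± 0.22, adjusted p = 0.000703, edgeR). ALDH18A1, for proline synthesis, changed by -0.58 ± 0.10 (adjusted p = 0.00117, edgeR), and ASNS (-0.96) and CBS (-0.996) fell. Of the signalling members, atf4b had 0.02, CHAC1 0.23 and TRIB3 -0.31, none past the threshold, and the stress protein nupr1a rose (1.83 ± 0.44, adjusted p = 0.0101, edgeR; 3.44 in the lower and 0.65 in the upper series).

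Genes of cholesterol synthesis fell, with a median below 0 in each number series. Of 32 tested genes, 15 fell and none rose (median -0.75; -1.26 in the lower and -0.71 in the upper series), and 27 lay below 0 in the upper series. In the mean level of the list, 8 of 9 fish at 37.5 nM were under the whole 3.75 nM range, and fish 175 was the exception. MVK (ENSDARG00000004130), mevalonate kinase, had 0.424, 2.00 and 9.33 CPM at 37.5 nM, against 3.80, 14.0 and 30.3 CPM at 3.75 nM (-2.73 ± 0.44, adjusted p = 0.00111, edgeR), with -2.26 in the lower and -3.06 in the upper series. NSDHL, a later enzyme that removes a methyl carbon, changed by -1.25 ± 0.21 (adjusted p = 0.00143, edgeR).

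MVD, HMGCS1 and AACS were among the 8 largest falls with a mean of at least 4 CPM. MVD, the mevalonate decarboxylase, had 0.852, 2.26 and 43.0 CPM at 37.5 nM, against 6.74, 25.0 and 172 CPM at 3.75 nM (-3.64 ± 0.81, adjusted p = 0.00679, edgeR). HMGCS1 (ENSDARG00000103025), HMG-CoA synthase, had 12.46, 29.0 and 440.3 CPM at 37.5 nM, against 56.3, 323 and 1669 CPM at 3.75 nM (-3.27 ± 0.75, adjusted p = 0.00757, edgeR). AACS, which activates acetoacetate for lipid synthesis, changed by -2.95 ± 0.56 (adjusted p = 0.00262, edgeR). The ranges overlapped through 1 fish at 37.5 nM in MVD (fish 175). MVD (adjusted p = 0.0763) and HMGCS1 (0.0807) did not pass without the 7 libraries in edgeR, where 5 of the list fell, against 8 with the pancreas covariates.

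Fatty acid and triglyceride synthesis gave only 3 falls among 40 (7.5%), under the background share. GPAM, the first enzyme of triglyceride synthesis, had 2.44, 3.42 and 5.74 CPM at 37.5 nM, against 2.53, 16.5 and 23.3 CPM at 3.75 nM (-1.59 ± 0.35, adjusted p = 0.00682, edgeR). ELOVL5, a fatty acid elongase, changed by -1.56 ± 0.37 (adjusted p = 0.00893, edgeR), and ACACA, acetyl-CoA carboxylase, by -1.28. The list median was -0.95 (lower series) and 0.01 (upper), where 18 of 40 lay below 0. Fatty acid oxidation and peroxisomes gave 1 fall among 56 (1.79%), with a median of 0.00 that was -0.06 with library-size scaling. ETFDH, which passes electrons of fatty acid oxidation to ubiquinone, had 101, 113 and 201 CPM at 37.5 nM and 67.4, 93.7 and 151 CPM at 3.75 nM (0.38 ± 0.13, adjusted p = 0.0559, edgeR).

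HKDC1, a hexokinase relative, had 8.60, 17.7 and 52.0 CPM at 37.5 nM, against 12.7, 152 and 864 CPM at 3.75 nM (-3.39 ± 0.87, adjusted p = 0.0142, edgeR), a call lost without fish 189 (0.0666) and with the pancreas covariates (0.07). Its change was -5.74 in the lower and -1.60 in the upper series. The glycolysis list as a whole gave 4 falls among 40, a share under the 10.6% of all genes. Its medians were -0.65 in the lower and 0.13 in the upper series. The falls included HKDC1, LDHB (-1.44) and PFKFB2 (-2.65). The TCA cycle gave 5 falls among 25 (median -0.22), among them IDH3A (-0.40 ± 0.08, adjusted p = 0.00401, edgeR). The TCA count was 2 to 8 with 1 fish left out, and leaving out fish 173, 174, 175, 177, 198, 163, 165, 166 or 167 brought it to 2. Gluconeogenesis and glycogen gave 2 rises (6.45%, beside 5.88% of all genes) and no fall among 31 (median 0.33). SIK1, a kinase induced by glucagon and cyclic AMP, had 25.5, 54.1 and 108 CPM at 37.5 nM, against 7.52, 12.4 and 42.9 CPM at 3.75 nM (1.76 ± 0.36, adjusted p = 0.00419, edgeR). The glucagon receptor gcgrb rose by 1.39 ± 0.45 (adjusted p = 0.0443, edgeR), which 13 fits with 1 fish left out did not keep. PCK1 had -0.80 and G6PC1 0.80, neither past the threshold.

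Among 51 genes of insulin, growth hormone and FOXO signalling, 2 rose (3.92%) and 1 fell (1.96%), under the 5.88% and 10.6% of all genes. Between 0 and 7 rose as 1 fish was left out, the most without fish 191. INSR, the insulin receptor (2 gene rows), had 65.0, 79.2 and 121 CPM at 37.5 nM, against 16.7, 34.3 and 94.6 CPM at 3.75 nM (0.92 ± 0.28, adjusted p = 0.0352, edgeR). Its groups were apart in the lower series, at 76.1 to 121 CPM and 16.7 to 34.3 CPM, and overlapped in the upper. TXNIP, an inhibitor of glucose uptake, rose (1.11), and PIK3R3, a regulatory subunit of PI3-kinase, fell by 0.86 ± 0.21 on the log2 scale (adjusted p = 0.0115, edgeR). IGFBP1, a growth factor binding protein of fasted liver, had a median of 79.0 CPM at 37.5 nM and 14.0 CPM at 3.75 nM with a change of 1.84 ± 0.69 that did not pass (adjusted p = 0.0781, edgeR).

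Lists with more rises at 37.5 nM than the 5.88% of all genes included the clock, the lysosome, and cytochrome P450 and conjugation. Of 41 tested clock genes, 10 rose and 1 fell (24.4% higher). The gene nfil3-5 (ENSDARG00000094965), a repressor of the output arm of the clock, had 12.9, 51.0 and 149.7 CPM at 37.5 nM, against 2.42, 14.8 and 28.1 CPM at 3.75 nM (1.95 ± 0.34, adjusted p = 0.00175, edgeR). Its change was 2.28 in the lower and 1.73 in the upper series, and 7 of 9 fish at 37.5 nM lay above every fish at 3.75 nM. The nuclear receptor rorcb, of the positive arm, changed by 1.16 ± 0.27 (adjusted p = 0.00941, edgeR). CLOCK (1.43), both BMAL1 rows (0.83 and 0.55), cry3a (0.67), cry3b (0.85), hlfa (0.82) and rorca (0.64) also rose, and 1 of 2 PER1 rows fell (-1.17). The count of rises was 9 or 10 with 1 fish left out and 8 with the pancreas covariates, but 1 without the 7 libraries, where nfil3-5 had 1.36 (adjusted p = 0.19, edgeR).

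Among 79 tested genes of the lysosome and autophagy, 13 rose (16.5%) and 6 fell (7.59%, under the 10.6% of all genes). The median was 0.04, and -0.03 with library-size scaling. ULK1 (ENSDARG00000074481), the kinase that starts autophagy, had 14.1, 20.2 and 29.4 CPM at 37.5 nM, against 0.582, 2.57 and 17.2 CPM at 3.75 nM (2.28 ± 0.58, adjusted p = 0.0137, edgeR). In the lower series it had 20.2 to 29.4 CPM at 37.5 nM and 0.582 to 1.76 CPM at 3.75 nM, and in the upper 14.1 to 23.8 CPM and 2.57 to 17.2 CPM. ATG2A (1.04), ATG9A (0.85), ATG13 (0.68), WIPI1 (0.85), WIPI2 (0.88), MAP1LC3A (1.29) and MAP1LC3B (1.04), all of autophagosome formation, rose, as did the lysosomal channel MCOLN1 (0.95) and the protease CTSD (0.41). The falls held 5 subunits of the V-ATPase proton pump, among them ATP6V0D1 (-0.49 ± 0.11, adjusted p = 0.00769, edgeR) and ATP6V1A (-0.86 ± 0.21, adjusted p = 0.0109, edgeR; 2 gene rows). The rises were 2 to 7 when any of fish 173, 174, 175, 177, 163, 165, 166, 167 or 189 was left out. The difference between the series passed for 12 of the 79 genes, a share to be read beside 7.86% for all genes. The count of rises was 9 without the 7 libraries and 1 with the pancreas covariates.

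Of 53 tested genes of cytochrome P450 and conjugation, a list that also holds receptors, 8 rose and 1 fell (15.1% higher, median 0.17). The aryl hydrocarbon receptor gene ahr2 had 79.2, 93.8 and 126 CPM at 37.5 nM, against 50.3, 63.7 and 98.9 CPM at 3.75 nM (0.55 ± 0.11, adjusted p = 0.00287, edgeR). NR1I2, the xenobiotic receptor PXR, rose (1.35), as did CYP2U1 (0.76), CYP27A1 (1.09), cyp27a1.1 (1.35), cyp46a1.3 (0.65), cyp2aa1 (0.82) and cyp3c1 (0.52). The P450 gene cyp2k19, of a family of near copies whose reads may be split, had 98.0, 148 and 174 CPM at 37.5 nM, against 162, 260 and 381 CPM at 3.75 nM (-0.81 ± 0.16, adjusted p = 0.00292, edgeR). The rises were 4 or 5 when any of fish 173, 174, 175, 163, 166, 167 or 189 was left out, 6 without the 7 libraries and 3 with the pancreas covariates. The NRF2 antioxidant list gave 4 falls and 1 rise among 50 (8.0% lower and 2.0% higher), under the 10.6% and 5.88% of all genes. The rise was KEAP1, the inhibitor of NRF2 (0.48 ± 0.14, adjusted p = 0.0255, edgeR), and the falls included the thioredoxin txnb (-0.87 ± 0.25, adjusted p = 0.0269, edgeR), SRXN1 (-1.09), PGD (-1.62) and GSS (-0.91). Without fish 173 none of the 4 falls passed, and between 1 and 2 did without fish 174, 175, 177, 163 or 165. The NRF2 list had 0 falls and 3 rises without the 7 libraries, and 0 falls and 0 rises with the pancreas covariates.

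In iron, heme and copper handling 3 of 37 rose (8.11%) and 4 fell (10.8%), beside 5.88% and 10.6% of all genes. Only 1 rose without fish 174, 175, 163, 166, 167 or 189. The falls were 1 without fish 173, 174, 175, 177, 163, 165 or 167, 2 without fish 202, 166 or 189, and 1 in each of the fits for markers of other tissues. SLC40A1 (ENSDARG00000000241), the iron exporter ferroportin, had 27.5, 44.5 and 172 CPM at 37.5 nM, against 7.56, 15.9 and 47.8 CPM at 3.75 nM (1.49 ± 0.27, adjusted p = 0.00219, edgeR). Its change was 1.58 in the lower and 1.45 in the upper series. The erythroid heme enzyme alas2 rose (1.08), and UROD, a later heme enzyme, fell by 0.50 ± 0.11 on the log2 scale (adjusted p = 0.00716, edgeR). Of the erythrocyte markers, a list that includes alas2, 9 of 15 tested rose (60.0%, beside 5.88% of all genes) and none fell. The rises were 8 without the 7 libraries and 3 with the pancreas covariates. The summed level was 160.2 to 1270.2 CPM at 37.5 nM and 86.8 to 260 CPM at 3.75 nM. HBE1, hbae1.1, hbae1.2 and hbae1.3 were at 0. The part of erythrocytes in the alas2 and SLC40A1 results was not tested.

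Few plasma protein genes passed the test. Complement and coagulation gave 3 rises (4.48%) and 1 fall (1.49%) among 67 (median 0.23), under the 5.88% and 10.6% of all genes. It had no rise without fish 173, 1 without fish 174, 175, 166 or 167 and 6 without fish 200. It had 5 rises without the 7 libraries and none with the pancreas covariates. Apolipoproteins and other plasma proteins gave no rise and 1 fall among 44 (2.27%, median 0.14). The complement gene c7a, of the membrane attack complex, changed by 0.72 ± 0.21 (adjusted p = 0.0285, edgeR). The other rises were VTN (0.56) and MASP1 (0.56), and the fall was the tissue factor gene f3a (-1.23 ± 0.36, adjusted p = 0.0287, edgeR), at under 1 CPM in each fish at 37.5 nM. The apolipoprotein B gene apobb.1 had 15968, 20834 and 31499.8 CPM at 37.5 nM, against 9938, 13215 and 24086 CPM at 3.75 nM, with a change that did not pass (0.55 ± 0.19, adjusted p = 0.0593, edgeR). APOO, named for apolipoproteins but known as a mitochondrial cristae protein, fell by 0.40 ± 0.12 on the log2 scale (adjusted p = 0.0301, edgeR; 2 gene rows).

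Amino acid breakdown gave 6 falls and 1 rise among 62 (9.68% lower and 1.61% higher, median -0.22), under the 10.6% and 5.88% of all genes. Its falls were 3 without fish 174 or 175, 12 without fish 199, 2 without the 7 libraries and 3 with the pancreas covariates. The lowest p values were those of HIBADH (-0.76 ± 0.14, adjusted p = 0.00223) and PCCA (-0.59 ± 0.15, adjusted p = 0.0115, both edgeR), of the valine and propionate routes. DNA replication and cell cycle genes gave 2 falls among 54 (3.7%, beside 10.6% of all genes). The list medians were -1.43 in the lower and -0.06 in the upper series. The falls were MCM5 of the replicative helicase (-1.44 ± 0.32, adjusted p = 0.0062) and TOP2B (-0.42 ± 0.13, adjusted p = 0.0315, both edgeR). The count was 1 to 9 as 1 fish was left out, the highest without fish 202. Immediate early and survival genes gave 6 rises (10.5%) and 2 falls (3.51%) among 57, beside 5.88% and 10.6% of all genes. They had 3 rises without fish 175, 163, 165 or 166, 1 without the 7 libraries and 2 with the pancreas covariates. The apoptosis inhibitor mcl1a (ENSDARG00000009779) had 66.7, 97.2 and 183 CPM at 37.5 nM, against 37.4, 55.8 and 66.3 CPM at 3.75 nM. All 9 fish at 37.5 nM lay above all 9 at 3.75 nM, and its change was 0.98 ± 0.19 (adjusted p = 0.00318, edgeR). MYC (2 gene rows) spanned 3.74 to 218 CPM at 37.5 nM and 6.50 to 20.8 CPM at 3.75 nM (2.19 ± 0.71, adjusted p = 0.0426, edgeR), and 11 fits with 1 fish left out did not keep the call. BTG1, which slows proliferation, changed by 0.65 ± 0.17 (adjusted p = 0.0136, edgeR). SGK2 (1.297), DUSP4 (1.35) and ier2a (0.76) also rose, and klf2a (-0.76) and PER1 fell.

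The other genes at the ends of the ranking had no list. The remaining large fall was si:dkey-33c14.2, with 0, 0.0302 and 3.30 CPM at 37.5 nM, against 0.0405, 6.15 and 55.4 CPM at 3.75 nM (-3.95 ± 1.18, adjusted p = 0.0305, edgeR). The rises were led, after ULK1, by the ubiquitin ligase znrf2a (2.19 ± 0.58, adjusted p = 0.0163), the anion exchanger SLC26A3 (2.12 ± 0.63, adjusted p = 0.0305) and RNF24 (1.94 ± 0.52, adjusted p = 0.0172), all in edgeR. SLC26A3 did not pass without fish 200, 163, 165, 166 or 167, without the 7 libraries (0.0804) or with the pancreas covariates (0.0553). The calls of znrf2a (0.0772) and RNF24 (0.109) were also lost without the 7 libraries, and si:dkey-33c14.2 was lost without fish 173, 174, 175 or 163 and with the pancreas covariates (0.133, all adjusted p in edgeR). The changes in the lower and upper series were 4.20 and 0.81 in znrf2a, 3.88 and 0.82 in SLC26A3, and 3.52 and 0.80 in RNF24. The gene zgc:65894 (ENSDARG00000016301) had 2.93, 10.9 and 15.9 CPM at 37.5 nM, against 1.11, 2.98 and 6.34 CPM at 3.75 nM (1.94 ± 0.36, adjusted p = 0.0023, edgeR). In 8 of 9 fish at 37.5 nM it exceeded every fish at 3.75 nM, and its change was larger in the upper (2.45) than in the lower series (1.36), a difference that did not pass (adjusted p = 0.364, edgeR).

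**Figure D5:**
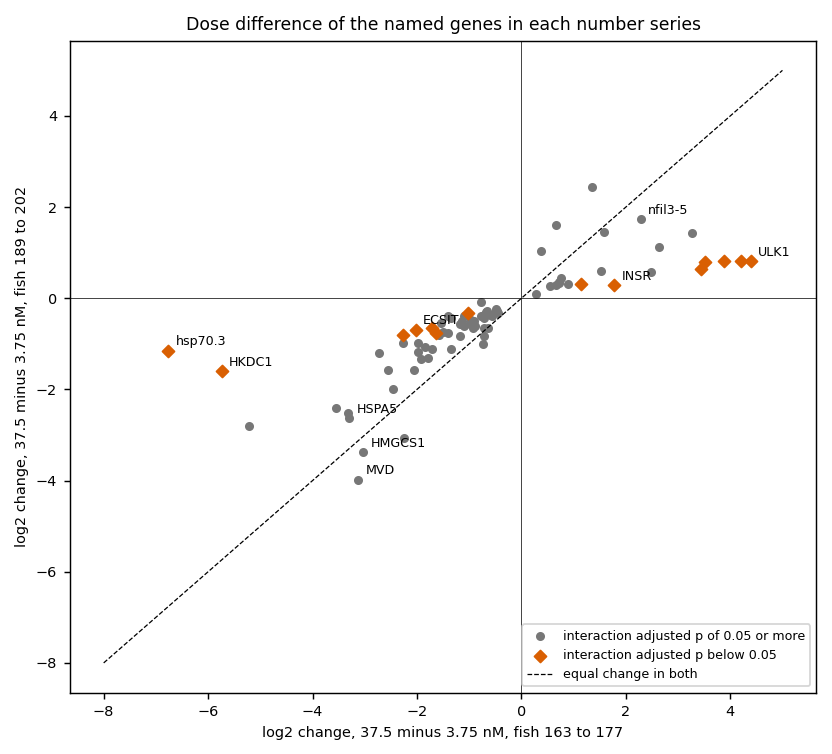
Log2 change, 37.5 minus 3.75 nM, of the named genes in the lower number series (x axis, fish 163 to 177) and in the upper (y axis, fish 189 to 202), each point 1 gene; diamonds mark genes whose difference between the series passed an adjusted p of 0.05. All 79 called genes plotted kept their sign in the upper series, most of them nearer to 0, as with hsp70.3 (-6.76 and -1.16) and ULK1 (4.39 and 0.82). These genes were called with the upper-series fish in the model, so the choice favoured a kept sign. Of genes called in the lower series alone, 78.6% kept it.

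Taken by itself, the lower series gave 5291 calls among 15199 genes (34.8%) and the upper series none among 16034 (0.0%), with a lowest adjusted p of 0.167 in edgeR. An unadjusted p under 0.05 was found for 1218 genes of the upper series, limma voom called 0 and DESeq2 called 143 (1.21%), 30 higher and 113 lower. Of these 143 calls, 127 were also calls of the main model in the same direction, a model that holds the same fish. In simulated data with all 18 fish, 48 of 212 DESeq2 calls were false, against 7 of 148 in edgeR. That simulation had more fish than the upper series, so its false share need not hold for the 143 calls. The difference between the series was tested directly, and 1216 of 15465 genes passed (7.86%). Of 5261 genes called in the lower series and tested in the upper, 4133 (78.6%) had the same sign in the upper series, 2148 of 2638 lower genes (81.4%) and 1985 of 2623 higher genes (75.7%). The median size of their log2 change was 1.02 in the lower series, from which they were chosen, and 0.24 in the upper. The median over genes of the SD of log2 CPM within a group was 0.36 at 37.5 nM and 0.45 at 3.75 nM. This SD pools both number series and so includes any difference between them. At 3.75 nM the lower-series fish and fish 189 lay apart from fish 191, 192 and 193 on the first component. Of the 82 named genes that passed, 67 passed in each of the 18 fits that left out 1 fish, 53 without the 7 libraries and 63 with the pancreas covariates. Beside those already given, calls lost as single fish were left out were those of INSR (11 fits), TOP2B (9), txnb and APOO (6 each), KEAP1 and f3a (4 each) and c7a (2). The fit without the 7 libraries also lost MYC, POLR1H, POLR1C, IDH3A, SIK1, gcgrb, HIBADH, txnb, ahr2, c7a, f3a, APOO, rorcb, PIK3R3, INSR, TOP2B, ATP6V0D1 and mcl1a, at adjusted p values of 0.0529 (txnb) to 0.298 (MYC) in edgeR. With the pancreas covariates hsp70.3, MYC, COX7A2, mt-atp8, POLR1H, POLR1C, gcgrb, KEAP1, txnb, c7a, f3a, INSR, MCM5, TOP2B and BTG1 were also lost, at 0.0596 (POLR1C) to 0.191 (mt-atp8).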

How the data were processed

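Total RNA of 1 liver per fish was sequenced after TruSeq RNA v2 library preparation, per the labels. The authors deposited counts per gene from featureCounts 1.4.6-p4 after STAR 2.4.1d alignment, with CASAVA 1.8.2 and the build GRCz10 also named, per the submitters' processing notes. Whether counting used strand is not given in the sources used here, so overlapping and antisense genes are uncertain. Values the authors named RPKM were not used.

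The 2 count tables were joined on gene ID (32105 gene rows, 26269 with a symbol). Symbols are spelled as the name table gives them, many in the human style. After TMM scaling and filterByExpr, edgeR 4.0.16 modelled the counts on concentration plus number series over the 18 fish, with a two-sided quasi-likelihood F test. Standard errors come from the change and its F statistic, and levels are TMM-scaled CPM. CPM ranges are the lowest, median and highest of 9 fish. The biological coefficient of variation was 0.503. The lowest chi-square per gene between replicates was 62.0, so no pair agreed within sampling noise. The labels do not say whether fish shared tanks or clutches, so the fish may not be independent and the p values may be too small. The spread between fish may also be partly technical. The scripts were tested on simulated data, where 7 of 148 calls were false in edgeR, 48 of 212 in DESeq2 and 10 of 156 in voom.

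The members and the 37 pathway and 14 marker lists were chosen with earlier results of these data known. Of 1578 pathway entries 1443 matched a gene row by symbol and 49 by synonym. Named genes were the 8 highest and 8 lowest changes past the threshold with a symbol and a mean of at least 4 CPM, and 2 tested members of each list with the lowest p. Some genes that the rule names are not reported here. Other list members were named after their values were seen. Alternatives used other scalings (RLE, upper quartile, library size), other filters, DESeq2 1.42.0, limma voom 3.58.1, all 24 fish, each series alone and 1 fish left out at a time. The 2 fits for markers of other tissues, and DESeq2 and voom in the upper series, were added after the data were seen. R 4.3.3 and Python 3.11.15 were used.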

Additional observations from a re-analysis of the deposited data

Results flagged for a closer look

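Within a group of 9 fish, 1 value stood far from the others in 12 of 174 groups tested, where chance gives about 1 in 20. Of these groups 11 were at 37.5 nM. Each group pooled both number series, so a gene whose levels parted by series could hardly show 1 far value. Several named genes, such as HSPA5, parted in that way at 3.75 nM. The split of the groups between the concentrations can therefore not be read as a difference between them. Fish 175 was high in MVD (43.0 CPM), HMGCS1 (440.3 CPM) and MVK (9.33 CPM), all of the mevalonate route. Fish 177 was high in si:dkey-33c14.2 (3.30 CPM) and hsp70.3 (1.72 CPM), and fish 173 in AACS (90.8 CPM) and RNF24 (70.2 CPM). Single genes stood out in fish 200 (HKDC1, 52.0 CPM), fish 199 (ETFDH, 201 CPM), fish 202 (ahr2, 126 CPM) and fish 174 (mcl1a, 183 CPM). At 3.75 nM fish 167 was high in UROD (13.6 CPM).

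In 14 of the 87 named genes the log2 change, 37.5 minus 3.75 nM, differed between the upper and the lower number series by a test of that difference (edgeR interaction, adjusted p under 0.05). Among genes that fell, the change was nearer to 0 in the upper series, by 5.54 in hsp70.3, 4.09 in HKDC1, 1.403 in HSPBP1, 1.29 in ECSIT, 0.99 in ETF1, 0.82 in LARS1 and 0.66 in NDUFAF1 (upper minus lower). Among genes that rose, the upper minus lower value was -3.62 in ULK1, -3.43 in znrf2a, -3.09 in SLC26A3, -2.83 in nupr1a, -2.77 in RNF24, -1.53 in INSR and -0.88 in BTG1. Endocrine pancreas markers had a summed level of 91.1 to 711 CPM in the 4 lower-series fish at 3.75 nM. Among the other fish, fish 198 at 37.5 nM had 409 CPM of the markers, with ULK1 at 15.4 and HKDC1 at 19.3 CPM. Fish 189 at 3.75 nM had 10.3 CPM of the markers, with ULK1 at 2.57 and HKDC1 at 258 CPM. The pancreas covariates entered a model of the concentration and not the test of a difference between the series. The part of the endocrine markers in these differences was therefore not tested.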

How the results depend on the processing

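The main model called 2546 genes, 909 higher and 1637 lower at 37.5 nM. Of the 87 named genes none changed sign in an alternative that tested it. The named genes were chosen on the same fish, which favours a kept sign. RLE, upper-quartile and library-size scaling, a filter of 1 CPM in 9 fish and all 24 fish in the model gave 2195 to 2729 calls, within 1.5 times of the main count. In the settings that follow at least 1 of the counts moved by more. Without the number series term 493 were higher, and without a filter on low counts 570. DESeq2 called 1419 higher, and limma voom 4391 in all with 1965 higher. The lower series alone gave 5291 calls, 2625 higher and 2666 lower. The upper series alone gave 0 calls in edgeR and in voom (1218 genes had an unadjusted p under 0.05), 0 higher and 0 lower, and DESeq2 gave 143, 30 higher and 113 lower. In models chosen after the data were seen, as were DESeq2 and voom for the upper series, leaving out the 7 libraries rich in markers of other tissues gave 1182, 372 higher and 810 lower, with 960 of the main calls among them. Pancreas covariates gave 1017, 243 higher and 774 lower, with 999 of the main calls. Leaving out 1 fish gave 1654 to 2953 calls, 432 to 1166 higher and 1158 to 1813 lower; the total was 1676 without fish 174, 1696 without fish 163 and 1654 without fish 167. Higher genes alone were 526 without fish 173, 518 without 174, 529 without 175, 569 without 177, 451 without 163, 455 without 166 and 432 without 167.

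Limits are that each concentration came in its own table, that no untreated fish was labelled, that 5 against 5 fish in the upper series gave no edgeR call, and that CPM near 0 rest on few reads. No paired analysis was possible because the fish numbers in the labels are not shared between the groups.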

Other observations

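Markers of other liver cells gave at most 1 call in each direction per list at 37.5 nM against 3.75 nM. None of 16 tested hepatocyte markers, 20 of macrophages and neutrophils, 20 of stellate cells and fibroblasts or 7 of lymphocytes passed in the edgeR fit. Of endothelial markers 1 of 17 rose (5.88%), of thrombocyte markers 1 of 8 rose (12.5%), and of cholangiocyte markers 1 of 17 rose and 1 fell (5.88% each). Of other tissues, 1 of 7 kidney markers rose and 1 fell (14.3% each). None passed among 20 of intestine, 23 of exocrine pancreas, 2 of muscle or 2 of germ cells. Over all genes the shares were 5.88% higher and 10.6% lower. The thrombocyte, cholangiocyte and kidney counts were 0 in some fits with 1 fish left out. The summed macrophage and neutrophil level was 135 to 1229 CPM at 37.5 nM and 102 to 1028 CPM at 3.75 nM. The endocrine pancreas list gave no call among 7 tested genes in the main model, with a median log2 change of -4.56 (lower series) and 2.15 (upper). In the lower series alone 6 of the 7 fell, and the difference between the series passed for 4.

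The 3-year fish, which also received 37.5 nM and were not part of the comparison, had 23.5, 64.3 and 200.3 CPM of HSPA5 (lowest, median and highest of 6) and 0.604, 1.63 and 2.60 CPM of MVK, on a scaling over all 24 fish.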
